A study of Mus musculus with 8 samples.

Results

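Interferon-stimulated genes are described here in brachiocephalic arteries with plaques, taken from mice that lack ApoE and were given an antibody that blocks Dll1. The 38 genes were taken by symbol from a table of 49585 mouse genes, and all 38 were found. The brachiocephalic artery is a branch of the aortic arch where plaques form in this strain. The antibody group (4 libraries) was ApoE-deficient mice whose high-fat feeding began at 12 weeks, injected into the peritoneum with 250 µg of the Dll1 antibody, clone HMD1-5, at 2 injections per week. The IgG group (4 libraries) was ApoE-deficient mice on the same diet given an equal dose of non-immune IgG by the same schedule. Both groups thus carried the ApoE deficiency and the diet, and no untreated or chow-fed mice were analysed here. Dll1 is a ligand of the Notch receptors. RNA was from whole artery, so fewer cells of a type and less RNA per cell cannot be told apart. The labels do not say whether samples were separate animals, so p-values measure only how these samples spread, and that spread may be technical.

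Interferons are cytokines of the antiviral response. Type I interferons, such as IFN-α and IFN-β, bind the receptor formed by IFNAR1 and IFNAR2 and act through JAK1, TYK2 and the factor ISGF3, which includes STAT2 and IRF9. ISGF3 binds a DNA element called the ISRE. Type II interferon, IFN-γ, binds IFNGR1 and IFNGR2 and acts through JAK1 and JAK2 on genes that carry an element called GAS. The induced proteins block viral replication, sense foreign nucleic acid, mark vacuoles that hold microbes and amplify or shut off the signal. In atherosclerosis of mice, both kinds of interferon are known to act on plaque macrophages.

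The column names carry the number 045 or 076, which the sources used here do not explain, and libraries that share one are called a set. Set 076 held antibody libraries D1IA and D2IA and IgG libraries G1IA and G2IA. In set 045 the 2 antibody libraries are also coded D1IA and D2IA, though they are different libraries, and the IgG libraries are C1IA and C2IA. Values of a set are given below in that order of libraries. Reads recovered from the TPM values lay on nuclear protein-coding genes in numbers of 7422343 to 8070921 per library in set 076 and of 663099 to 2729071 in set 045. Structural RNA took most of the TPM in set 045, so levels are given as TPM rescaled to 1000000 over nuclear protein-coding genes, written pcTPM. The tissue markers were present in every library. Smooth muscle actin (Acta2) had levels of 1898 to 2284 pcTPM in set 076 and 239.9 to 530.1 pcTPM in set 045, and Cd68, a macrophage gene, at 210.4 to 667 and 186 to 381 pcTPM. Xist, which is made from an inactive X chromosome, lay at 309 pcTPM in antibody library D2IA and 262 pcTPM in IgG library C1IA of set 045, and at 2.33 pcTPM or less in the other 6 libraries. Without the libraries D2IA and C1IA of set 045, the test over both sets called 0 members, as it did with them. Since that test called 0 genes of any kind with all 8 libraries, this count cannot show whether the Xist difference matters.

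The promoters of the members carried the element that ISGF3 binds far more often than promoters at large. RefSeq windows (GRCm38.p6) from 250 bases before to 50 bases after each gene's start were matched for 29 of the 38 members. The ISRE was searched as GAAA, any 2 bases and GAAA again or, on the other strand, TTTC, any 2 bases and TTTC. It occurred in 18 of the 29 members (62.1%), against 1079 of 27025 genes (3.99%). The GAS element was searched as TTCNNNGAA, which reads the same on both strands, and overlapping matches were counted for both elements. It occurred in 9 of the 29 members (31.0%), against 2582 of 27025 genes (9.55%). A match is a run of letters and was not tested as a bound site, and the absence of one covers only this window. The windows below belong to some of the members that held an ISRE match. They are Isg15, the paralogs Ifit3 and Ifit3b, the enzyme gene Rsad2, the GTPase genes Gbp2 and Irgm1, and the most abundant member, Ifitm3. None of these passed the test between the sets given further below. Of the members that did, Stat2 held an ISRE match and Cmpk2, Ifi35, Irf7, Oasl1, Oasl2 and Xaf1 held none. Mx2 and Usp18 had no matched window. The windows are written 5′ to 3′ on the gene's strand, in lower case with ISRE matches in capitals.
Isg15: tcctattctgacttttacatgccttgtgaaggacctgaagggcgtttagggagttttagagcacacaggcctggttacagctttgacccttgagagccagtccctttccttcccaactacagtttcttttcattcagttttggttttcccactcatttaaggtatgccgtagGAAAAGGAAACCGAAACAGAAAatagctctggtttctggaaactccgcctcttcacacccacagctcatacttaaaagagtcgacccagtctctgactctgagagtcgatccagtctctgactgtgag
Ifit3: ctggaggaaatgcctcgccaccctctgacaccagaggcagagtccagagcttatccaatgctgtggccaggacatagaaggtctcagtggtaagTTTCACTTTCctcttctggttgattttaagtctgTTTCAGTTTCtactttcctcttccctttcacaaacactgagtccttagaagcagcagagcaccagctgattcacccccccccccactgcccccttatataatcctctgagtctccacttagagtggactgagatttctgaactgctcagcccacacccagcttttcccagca
Ifit3b: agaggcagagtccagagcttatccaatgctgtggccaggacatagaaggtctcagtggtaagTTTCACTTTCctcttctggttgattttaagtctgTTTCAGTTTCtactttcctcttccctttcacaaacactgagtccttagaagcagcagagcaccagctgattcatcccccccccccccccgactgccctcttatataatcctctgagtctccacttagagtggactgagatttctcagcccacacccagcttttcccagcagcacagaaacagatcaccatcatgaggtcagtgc
Rsad2: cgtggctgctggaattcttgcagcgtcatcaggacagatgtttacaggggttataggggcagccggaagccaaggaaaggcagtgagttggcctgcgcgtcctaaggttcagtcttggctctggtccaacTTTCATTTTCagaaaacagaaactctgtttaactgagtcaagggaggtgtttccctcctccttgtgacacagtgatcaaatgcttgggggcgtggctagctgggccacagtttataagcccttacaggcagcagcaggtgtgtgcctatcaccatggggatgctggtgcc
Gbp2: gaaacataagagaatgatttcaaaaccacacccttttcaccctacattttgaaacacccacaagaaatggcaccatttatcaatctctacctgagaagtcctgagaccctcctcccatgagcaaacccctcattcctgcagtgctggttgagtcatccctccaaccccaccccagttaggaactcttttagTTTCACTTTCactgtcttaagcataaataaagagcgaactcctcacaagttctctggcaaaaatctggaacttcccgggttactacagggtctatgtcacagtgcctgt
Irgm1: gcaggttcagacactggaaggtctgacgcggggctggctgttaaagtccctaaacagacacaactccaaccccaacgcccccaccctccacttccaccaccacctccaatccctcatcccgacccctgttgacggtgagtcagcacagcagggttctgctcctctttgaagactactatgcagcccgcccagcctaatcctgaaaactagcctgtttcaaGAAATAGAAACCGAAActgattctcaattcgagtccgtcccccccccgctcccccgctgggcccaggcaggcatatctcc
Ifitm3: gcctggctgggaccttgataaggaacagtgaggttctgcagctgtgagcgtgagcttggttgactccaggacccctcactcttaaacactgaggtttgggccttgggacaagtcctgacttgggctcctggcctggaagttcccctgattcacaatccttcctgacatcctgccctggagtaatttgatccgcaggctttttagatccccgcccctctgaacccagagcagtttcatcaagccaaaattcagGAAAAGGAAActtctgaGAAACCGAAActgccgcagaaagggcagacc

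The Isg15 window (chr4:156200769-156201068 on the minus strand) held 3 overlapping ISRE matches, the first starting at position -78 from the start site. The Ifit3 window (chr19:34583279-34583578 on the plus strand) and the Ifit3b window (chr19:34607707-34608006 on the plus strand) each held 2. With 1 window shifted by 32 bases and no gaps allowed, 201 of 268 bases were identical. The windows differ in the length of a run of C, past which bases fall out of step. The count without gaps thus understates their likeness. The Rsad2 window (chr12:26456403-26456702 on the minus strand) and the Gbp2 window (chr3:142620413-142620712 on the plus strand) each held 1, at -120 and -59. The Irgm1 window (chr11:48871371-48871670 on the minus strand) held 2 overlapping matches at -30 and -24. In Ifitm3 (chr7:141010695-141010994 on the minus strand) both matches lay after the start site, at 2 and 19. Irf1, a factor induced by IFN-γ, had a GAS match at -90 and no ISRE match in its window.

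**Figure D1:**
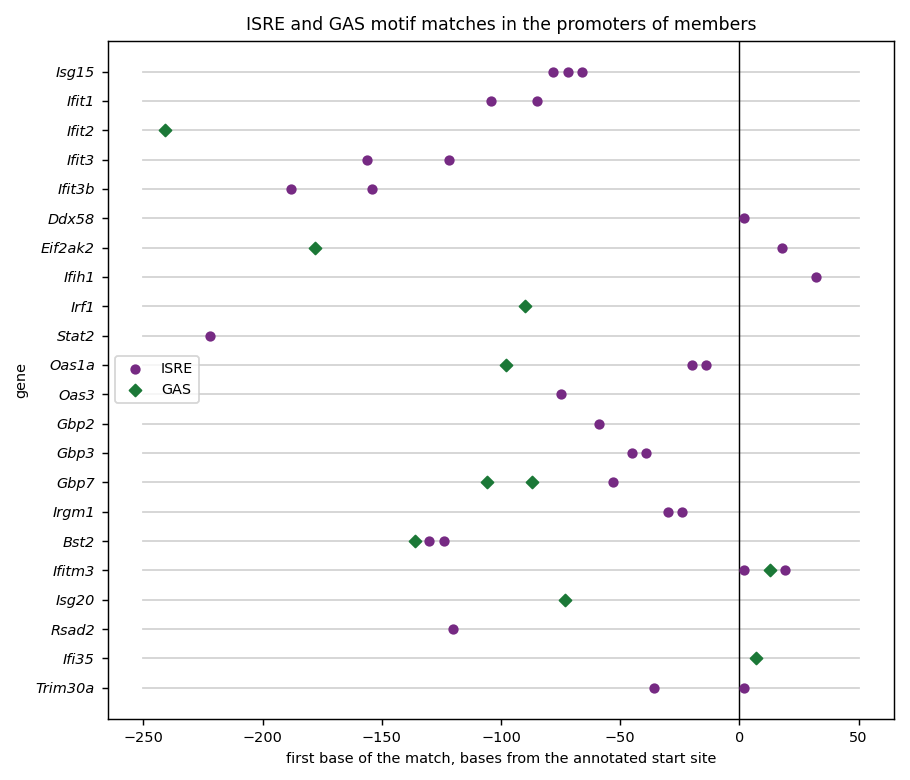
Matches to the ISRE (circles) and GAS (diamonds) letters in the RefSeq promoter windows of the members that held at least 1 match. The horizontal axis gives the first base of the match in bases from the annotated start site, and each row is a gene. ISRE matches lay in 18 of 29 members and GAS matches in 9.

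All 38 members passed the filter of a mean of at least 1 pcTPM and were tested among 18170 genes. Reads per member ranged from 0 in antibody library D1IA of set 045 to 1111 in IgG library G2IA of set 076. Ifitm3 was the most abundant member. It encodes a membrane protein that blocks virus entry by fusion. Ifitm3 lay at 523 and 471 pcTPM in the antibody libraries of set 076, against 564 and 689 pcTPM in its IgG libraries. In set 045, Ifitm3 had 830.4 and 541 pcTPM in the antibody libraries and 355 and 413 pcTPM in the IgG libraries. Bst2, which encodes tetherin, a protein that holds budding viruses on the cell, was next. Bst2 lay at 74.8 and 91.2 pcTPM in the antibody libraries of set 076, against 89.1 and 86.6 pcTPM in its IgG libraries. In set 045, Bst2 had 127 and 97.5 pcTPM in the antibody libraries and 123 and 111 pcTPM in the IgG libraries. At the other end lay Ifi44 and Mx1. Ifi44 lay at 1.53 and 3.19 pcTPM in the antibody libraries of set 076, against 1.14 and 2.81 pcTPM in its IgG libraries. In set 045, Ifi44 had 0 and 2.00 pcTPM in the antibody libraries and 0.786 and 4.39 pcTPM in the IgG libraries. It had 0 reads in antibody library D1IA of set 045, which allows up to 2.55 pcTPM for a count of 0 taken as 3 reads. Intervals and such limits cover counting error only. Mx1 lay at 1.12 and 6.24 pcTPM in the antibody libraries of set 076, against 1.79 and 3.57 pcTPM in its IgG libraries. In set 045, Mx1 had 0 and 8.72 pcTPM in the antibody libraries and 4.62 and 1.55 pcTPM in the IgG libraries. Mx1 encodes a dynamin-like GTPase that traps viral ribonucleoprotein, and its 0 reads in the same library allow up to 4.29 pcTPM.

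Together the members took 1216 and 1371 pcTPM in the antibody libraries of set 076, against 1464 and 1661 pcTPM in its IgG libraries. In set 045 they took 2906 and 1979 pcTPM in the antibody libraries and 1529 and 1786 pcTPM in the IgG libraries. The summed level thus lay lower with the antibody in set 076 and higher with it in set 045, without overlap of the groups in either set. Ifitm3 made the groups of set 076 separate, since without it the sums were 692 and 900.4 pcTPM in the antibody libraries, against 899.7 and 972 pcTPM in the IgG libraries, which overlap. The direction in set 045 depended on the scale. The members' median log2 fold change there was 0.33 on the pcTPM scale, against -0.13 for all genes. In TPM as deposited it was -0.23 for the 31 members that passed the filter, against -0.36 for all genes. The members' median thus lay above that of all genes on both scales.

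**Figure D2:**
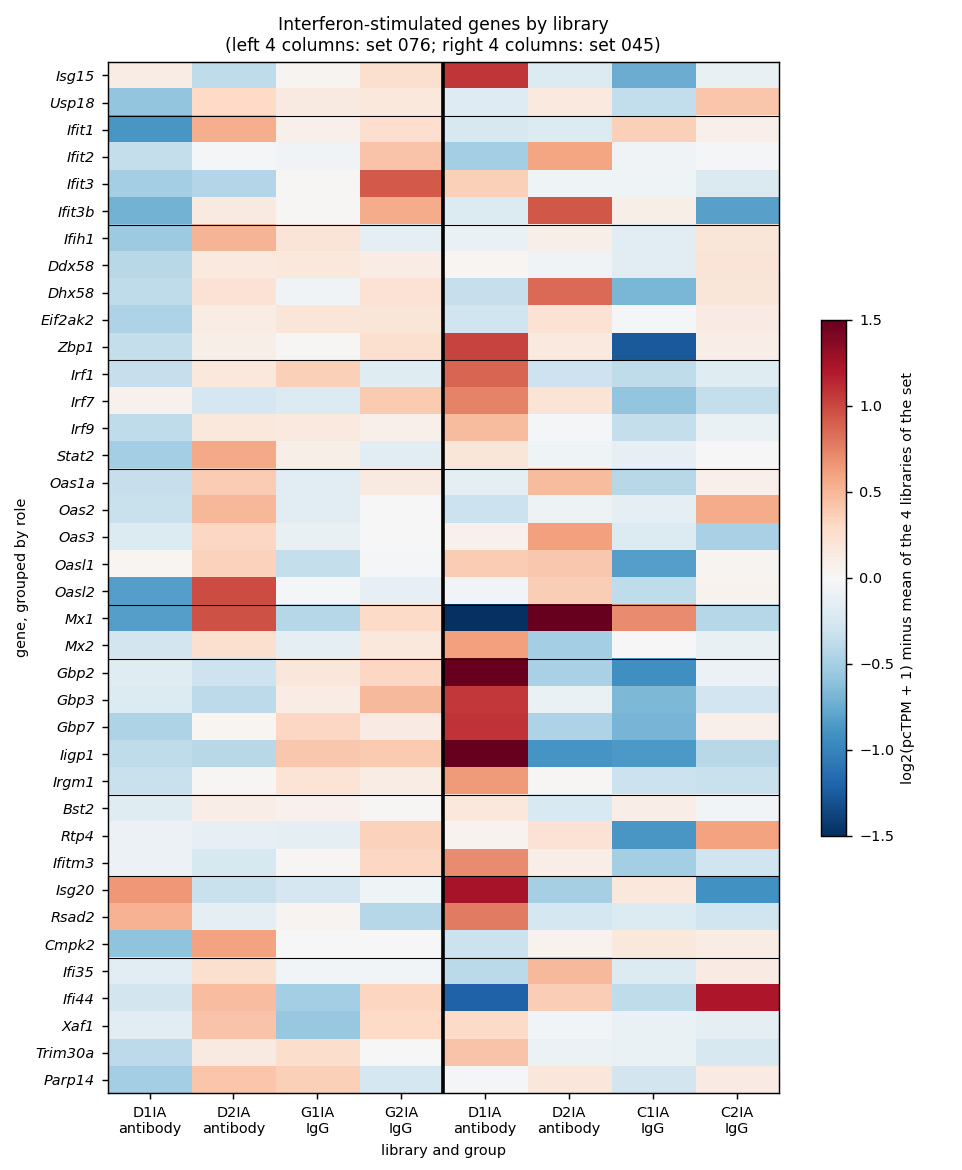
Level of each member in each library as log2(pcTPM + 1) minus the mean of the 4 libraries of its set, with set 076 on the left, set 045 on the right and the antibody libraries left of the IgG libraries in each. Red is above and blue below the set's mean. The column of antibody library D1IA of set 045 is red for the GTPase genes, with Gbp2 at 228 and Iigp1 at 207 pcTPM. The column of antibody library D1IA of set 076 is blue for most rows. That library was the lowest of its set for 26 of 38 members and for 42.6% of all genes.

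No member passed the test for a difference between the Dll1 antibody and IgG. In limma over all 8 libraries, with the set as a term, 0 of 38 members and 0 of 18170 genes passed an adjusted p of 0.05 (0.00% of genes called in either direction), and the smallest adjusted p of any gene was 0.9998. Unadjusted p-values under 0.05 were found for 278 genes (1.53%) and 0 members. The log2 fold change, antibody minus IgG on the log2(pcTPM + 1) scale, was positive for 26 members and negative for 12, with a median of 0.09 against -0.07 over all genes. The 95% intervals reached a median of 0.70 to either side of the fold change, and 21 of the 38 intervals lay within 1 log2 unit of 0. For those 21 genes a change beyond 2-fold lay outside the interval, and for the other 17 it did not.

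**Figure D3:**
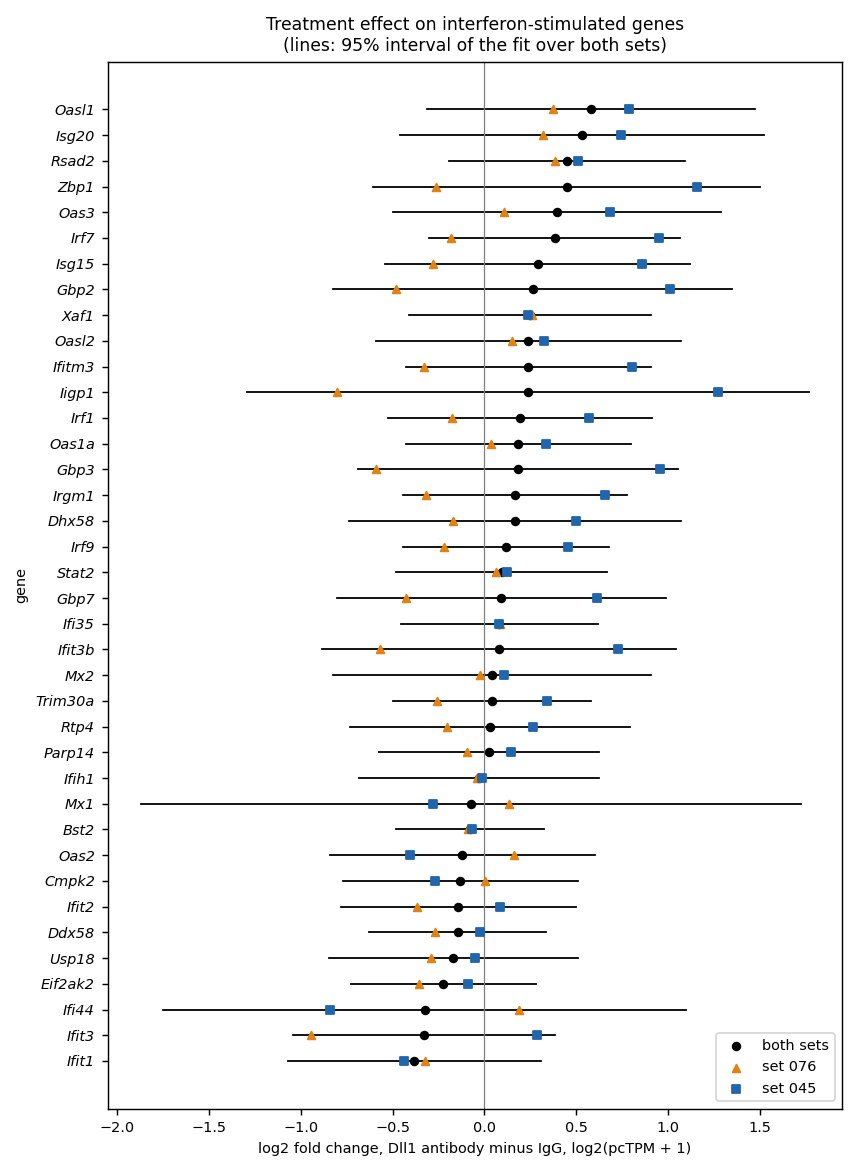
Log2 fold change of each member, antibody minus IgG, over both sets (black circles, with the 95% interval of the fit as a line), in set 076 (triangles) and in set 045 (squares). All 38 intervals contain 0, and triangles lie left of squares for 31 of 38 members.

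The nucleotide and nucleic acid enzymes held the member of smallest unadjusted p, Rsad2, which encodes viperin, an enzyme that makes a chain-terminating nucleotide. Rsad2 lay at 35.9 and 22.6 pcTPM in the antibody libraries of set 076, against 25.6 and 18.2 pcTPM in its IgG libraries. In set 045, Rsad2 had 62.6 and 29.95 pcTPM in the antibody libraries and 31.2 and 29.1 pcTPM in the IgG libraries. In each set antibody library D1IA was the highest and antibody library D2IA lay between the IgG libraries. Rsad2 averaged 37.8 ± 17.4 pcTPM in the antibody libraries and 26.00 ± 5.71 pcTPM in the IgG libraries (SD, n = 4 each). Its fold change on the log2 scale was 0.45 (-0.19 to 1.09, limma 95% interval). Isg20, an exonuclease gene that degrades RNA, was also highest in library D1IA of each set. Isg20 lay at 36.8 and 18.1 pcTPM in the antibody libraries of set 076, against 19.3 and 21.9 pcTPM in its IgG libraries. In set 045, Isg20 had 50.5 and 14.5 pcTPM in the antibody libraries and 23.3 and 10.7 pcTPM in the IgG libraries. Library D2IA lay lowest in set 076 and between the IgG libraries in set 045, and the log2 fold change over both sets was 0.53 ± 0.43 (SE). Cmpk2, a mitochondrial kinase for pyrimidine nucleotides that lies beside Rsad2 in the genome, had a fold change of -0.13 ± 0.28 on the log2 scale.

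The OAS family makes or resembles the enzymes that produce oligoadenylate and so activate RNase L. Of its 5 members, 4 had positive and 1 a negative log2 fold change over both sets, with none called. Oasl1, a family member that represses translation of Irf7 mRNA in mice, was the only member whose antibody libraries lay above the IgG libraries in both sets, a pattern found in 0.660% of all genes, and no member lay below in both sets (1.45%). Oasl1 lay at 2.18 and 2.97 pcTPM in the antibody libraries of set 076, against 1.43 and 2.10 pcTPM in its IgG libraries. In set 045, Oasl1 had 11.99 and 12.2 pcTPM in the antibody libraries and 4.62 and 9.22 pcTPM in the IgG libraries. These levels rest on 5 to 17 reads per library, and the log2 fold change was 0.58 (-0.31 to 1.48). Under quantile normalization the groups of set 076 overlapped for Oasl1, and with the TPM as deposited those of set 045 did. Oas3 lay at 1.95 and 3.22 pcTPM in the antibody libraries of set 076, against 2.14 and 2.41 pcTPM in its IgG libraries. In set 045, Oas3 had 7.98 and 12.2 pcTPM in the antibody libraries and 6.45 and 5.14 pcTPM in the IgG libraries. Oas3 had a log2 fold change of 0.40 ± 0.39. In set 076, the 5 members had log2 fold changes of 0.03 to 0.37, all positive on each of the 4 scales compared, while no gene of the family was called.

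The IFIT genes encode proteins that bind viral RNA. In set 076 all 4 lay lower on average with the antibody (log2 fold changes of -0.95 to -0.32), on each of the 4 scales, and in set 045 3 of 4 lay higher, but 1 of 4 with the TPM as deposited. Ifit3 was among the 2 members with an unadjusted p under 0.05 in set 076, where 296 of 18170 genes (1.63%) had one and 3 genes, all lower, were called (0.0165%). Ifit3 lay at 42.2 and 44.3 pcTPM in the antibody libraries of set 076, against 61.3 and 116 pcTPM in its IgG libraries. In set 045, Ifit3 had 117 and 86.9 pcTPM in the antibody libraries and 86.97 and 77.8 pcTPM in the IgG libraries. In set 076 its fold change was -0.95 ± 0.36 on the log2 scale, with an adjusted p of 1.00 (limma). The antibody libraries lay below both IgG libraries in set 076, although G1IA and G2IA themselves lay far apart. Ifit3b lay at 9.16 and 17.3 pcTPM in the antibody libraries of set 076, against 15.8 and 23.3 pcTPM in its IgG libraries. In set 045, Ifit3b had 15.6 and 35.5 pcTPM in the antibody libraries and 19.3 and 9.91 pcTPM in the IgG libraries. Ifit3b is a near copy of Ifit3, reads may have been shared between them in a way that the sources used here do not state, and their levels are uncertain for that reason. Ifit1 lay at 12.9 and 36.1 pcTPM in the antibody libraries of set 076, against 25.7 and 29.1 pcTPM in its IgG libraries. In set 045, Ifit1 had 31.4 and 32.2 pcTPM in the antibody libraries and 48.1 and 39.4 pcTPM in the IgG libraries. Its log2 fold change over both sets was -0.38 (-1.07 to 0.31), the lowest of the members. Ifit2 lay between 22.2 and 52.3 pcTPM in the 8 libraries.

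Isg15 encodes a ubiquitin-like protein that is joined to other proteins, and Usp18 the protease that removes it and that also shuts off the type I receptor. Isg15 lay at 25.8 and 18.1 pcTPM in the antibody libraries of set 076, against 24.6 and 28.4 pcTPM in its IgG libraries. In set 045, Isg15 had 103 and 42.1 pcTPM in the antibody libraries and 28.7 and 44.9 pcTPM in the IgG libraries. The value in antibody library D1IA of set 045 rests on 15 reads, with an exact 95% Poisson interval of 57.9 to 171 pcTPM. Usp18 lay at 6.27 and 12.4 pcTPM in the antibody libraries of set 076, against 11.01 and 11.2 pcTPM in its IgG libraries. In set 045, Usp18 had 20.6 and 26.3 pcTPM in the antibody libraries and 18.1 and 31.95 pcTPM in the IgG libraries. Over both sets the log2 fold changes were 0.29 ± 0.36 for Isg15 and -0.17 ± 0.30 for Usp18.

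Among the sensors, Eif2ak2, which encodes the RNA-activated kinase PKR, lay lower in both antibody libraries of set 076 on the pcTPM scale. Eif2ak2 lay at 20.6 and 31.1 pcTPM in the antibody libraries of set 076, against 32.8 and 32.7 pcTPM in its IgG libraries. The exact Poisson interval of D2IA (28.0 to 34.6 pcTPM) met those of G1IA (29.5 to 36.4) and G2IA (29.6 to 36.1). In TPM as deposited both IgG libraries of set 076 lay between the antibody libraries. In set 045, Eif2ak2 had 22.4 and 32.5 pcTPM in the antibody libraries and 27.3 and 30.4 pcTPM in the IgG libraries. Its log2 fold change over both sets was -0.22 (-0.73 to 0.28). Ddx58 (RIG-I), Ifih1 (MDA5) and Dhx58 (LGP2), helicases that sense or help to sense viral RNA, ranged over 17.4 to 37.3, 8.47 to 22.7 and 4.97 to 23.2 pcTPM in the 8 libraries. Zbp1, a sensor of Z-form nucleic acid that can start necroptosis, ranged over 4.10 to 23.6 pcTPM. All 5 sensors had negative log2 fold changes in set 076 (-0.36 to -0.04), with 4 of 5 negative in TPM as deposited, and in set 045 the number of positive ones was 2 of 5 on the pcTPM scale, 0 in TPM as deposited and 5 after quantile normalization.

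The 4 transcription factors carry the signal. Irf7, the factor that drives late type I interferon production, had an unadjusted p of 0.038 in set 045, where 793 genes (4.36%) were under 0.05 and 0 were called (limma). Irf7 lay at 18.1 and 14.3 pcTPM in the antibody libraries of set 076, against 14.8 and 22.8 pcTPM in its IgG libraries. In set 045, Irf7 had 75.95 and 51.8 pcTPM in the antibody libraries and 29.5 and 34.7 pcTPM in the IgG libraries. The set 045 log2 fold change was 0.95 ± 0.32, with an adjusted p of 0.800 (limma), and in set 076 it was -0.18. Over both sets it was 0.38, and -0.048 with the TPM as deposited. Stat2 lay at 16.8 and 36.5 pcTPM in the antibody libraries of set 076, against 25.9 and 21.6 pcTPM in its IgG libraries. In set 045, Stat2 had 81.8 and 68.98 pcTPM in the antibody libraries and 65.7 and 72.1 pcTPM in the IgG libraries. Stat2, the ISGF3 subunit that carries its activation domain, had a log2 fold change of 0.09 over both sets. Irf9, the DNA-binding subunit of ISGF3, ranged over 16.3 to 48.4 pcTPM and Irf1 over 23.7 to 110.1 pcTPM.

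The guanylate-binding proteins Gbp2, Gbp3 and Gbp7 and the immunity-related GTPases Iigp1 and Irgm1, which IFN-γ strongly induces and which act on vacuoles that hold microbes, took opposite sides in the 2 sets on the pcTPM scale, while in TPM as deposited 2 of the 5 lay higher with the antibody in set 045. The description of this family, of Isg15, Irf1 and Parp14 by library, and of the library patterns below was chosen after the values were seen. In set 076 both antibody libraries lay below both IgG libraries for 8 of 38 members (21.1%), against 11.0% of all genes, and these 8 included all 5 of the family along with Ifit3, Eif2ak2 and Ifitm3. They lay above them for 1 member, Oasl1, against 7.99% of genes. Iigp1 lay at 25.6 and 24.9 pcTPM in the antibody libraries of set 076, against 45.02 and 44.5 pcTPM in its IgG libraries. In set 045, Iigp1 had 207 and 24.3 pcTPM in the antibody libraries and 24.7 and 34.00 pcTPM in the IgG libraries. In set 076 the log2 fold change of Iigp1 was -0.80 ± 0.24 (unadjusted p = 0.020, adjusted p = 1.00, limma). Gbp2 lay at 58.5 and 53.5 pcTPM in the antibody libraries of set 076, against 74.7 and 82.9 pcTPM in its IgG libraries. In set 045, Gbp2 had 228 and 57.4 pcTPM in the antibody libraries and 42.1 and 75.4 pcTPM in the IgG libraries. In set 076 the Gbp2 libraries with antibody lay at 0.711 times the IgG mean, and those of Iigp1 at 0.564 times. Gbp3, Gbp7 and Irgm1 lay at 0.649, 0.744 and 0.801 times, all of them means of 2 libraries each. All 5 log2 fold changes were negative in set 076 on each of 4 scales. The groups were apart for all 5 in read counts scaled to protein-coding depth, 4 after quantile normalization and 3 in TPM as deposited. How many of all genes were apart was counted on the pcTPM scale only.

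The same libraries of set 076 differed in markers of other cells. Summed B and plasma cell markers lay at 516 and 906 pcTPM in the antibody libraries, against 8334 and 12679 pcTPM in the IgG libraries, with none of the 8 markers at 0. Igkc, Ighm and Jchain made nearly all of each sum. All 8 markers had negative log2 fold changes in set 076, from -4.46 to -0.73. Cd79a, for one, lay at 2.23 and 1.56 pcTPM with the antibody and at 5.11 and 4.04 pcTPM with IgG. Summed macrophage markers lay at 6764 and 9005 pcTPM with the antibody and at 13472 and 6210 pcTPM with IgG. T and NK cell markers lay at 99.8 and 26.0 pcTPM with the antibody and at 77.7 and 9.23 pcTPM with IgG, with 1 of 9 at 0 in G2IA. Ifng itself had 1 read in antibody library D2IA and 0 in the other libraries of set 076. The part of these cells in the GTPase values was not tested.

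**Figure D4:**
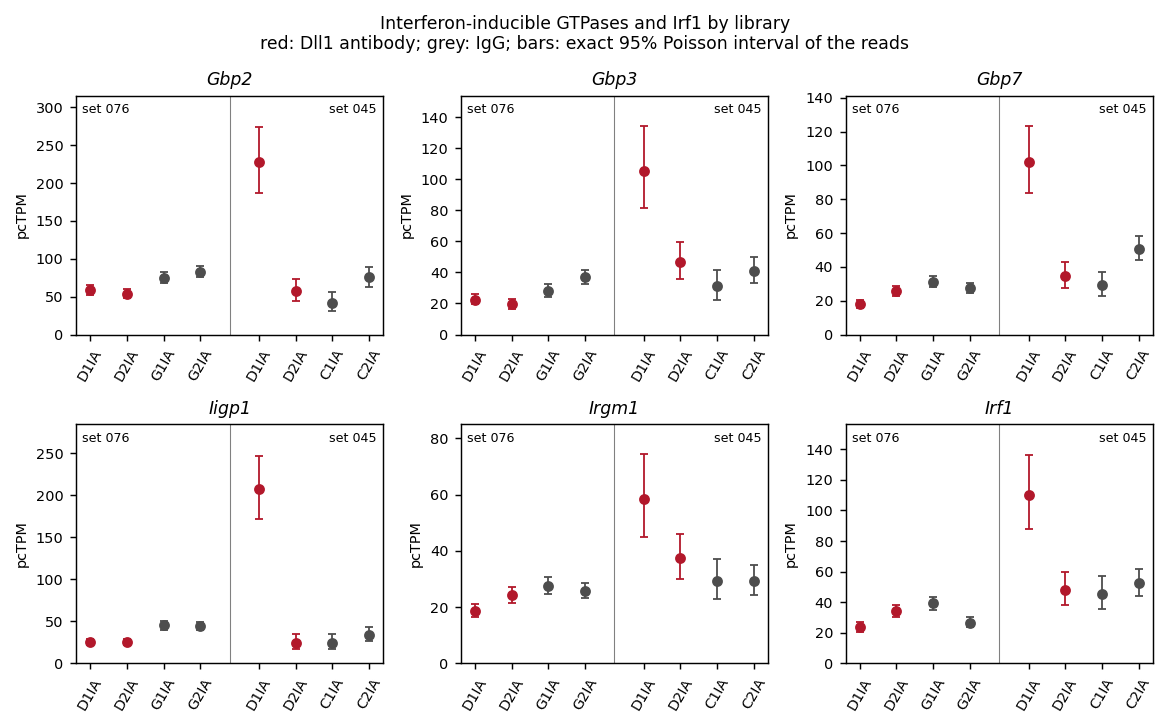
Level in pcTPM of the 5 GTPase genes and of Irf1 in each library, set 076 on the left and set 045 on the right of each panel, with antibody libraries in red and IgG libraries in grey. Bars are exact 95% Poisson intervals of the reads and cover counting error only. Antibody library D1IA of set 045 stands above all other libraries in every panel, at 207 pcTPM for Iigp1 where the other 7 libraries lie between 24.3 and 45.02.

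In set 045 a single antibody library, D1IA, carried the high GTPase values. It was the highest of its set for 19 of 38 members (20.6% of all genes) and the lowest for 8 (37.7%). The 8 were Ifit1, Ifit2, Ifi35, Ifi44, Mx1, Oas2, Eif2ak2 and Cmpk2. For 6 members it lay over 2-fold above each other library of the set (3.39% of genes), namely Isg15, Isg20, Irf1, Gbp2, Gbp3 and Iigp1. Isg15 and Isg20 rest there on 15 and 18 reads, and for both the Poisson interval met that of the next library. Iigp1 lay 6.09-fold above the next library of the set, Gbp2 3.02-fold and Gbp3 2.27-fold. The Poisson interval of Iigp1 in this library, 172 to 247 pcTPM, did not meet that of any other library. Gbp3 lay at 22.6 and 19.6 pcTPM in the antibody libraries of set 076, against 28.2 and 36.8 pcTPM in its IgG libraries. In set 045, Gbp3 had 105 and 46.4 pcTPM in the antibody libraries and 30.99 and 40.7 pcTPM in the IgG libraries. Irf1 was high in the same library. Irf1 lay at 23.7 and 34.1 pcTPM in the antibody libraries of set 076, against 39.2 and 26.6 pcTPM in its IgG libraries. In set 045, Irf1 had 110.1 and 47.99 pcTPM in the antibody libraries and 45.4 and 52.3 pcTPM in the IgG libraries. In the other antibody library of set 045, D2IA, Gbp2, Gbp7 and Irf1 lay inside the range of the IgG libraries, Iigp1 just below it, and Gbp3 and Irgm1 above it. With the TPM as deposited, library D1IA was the highest of its set for 2 members, and after quantile normalization for 22. The shares of all genes on these scales were not counted.

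Leaving out either antibody library of set 045 changed the picture for Iigp1. Over all 4 libraries of the set its log2 fold change was 1.27 ± 1.08 (adjusted p = 0.800, limma). With the spread taken from all 4 groups of libraries and none left out, the adjusted p was 0.611 and 0 genes were called (limma). In that same fit without D2IA the log2 fold change was 2.79 with an adjusted p of 0.0473 (limma), and 1 member and 42 genes were called, the lone antibody library being assumed to vary like the others. Without D1IA it was -0.25 and no member was called. A list of 46 other interferon-stimulated genes, set down with earlier results known, held genes that stood high in D1IA and genes that did not. Of these 46 genes, 28 were highest of the set in D1IA (20.6% of all genes), 4 were lowest (37.7%) and 11 were over 2-fold above the next library (3.39%), with Gbp4 at 3.95-fold, Gbp6 at 3.51-fold, Igtp at 2.73-fold and the IFN-γ-induced chemokine Cxcl9 at 5.86-fold. Cxcl9 lay at 19.01 and 3.24 pcTPM in the antibody libraries of set 045, against 0.799 and 2.82 pcTPM in its IgG libraries, and its value in D1IA rests on 11 reads. Relatives of these genes lay below D2IA in the same library, Cxcl10 at 9.73 pcTPM in D1IA and 13.7 pcTPM in D2IA on 3 and 9 reads, and Gbp8 at 1.51 and 3.55 pcTPM on 1 and 5 reads. These 6 genes were named after their values were seen. The summed neutrophil markers also stood high in this library, at 1079 pcTPM, against 143 pcTPM in D2IA and 119.8 and 90.3 pcTPM in the IgG libraries, and 1 of 5 at 0. S100a9 (679 pcTPM) and S100a8 (376 pcTPM) made nearly all of that sum, and the other 3 markers, Retnlg, Camp and Ngp, rest there on 2, 1 and 0 reads. Summed endothelial markers were also highest of the set in D1IA, at 681 pcTPM, against 518 pcTPM in D2IA and 335 and 413 pcTPM in the IgG libraries. Those of contractile smooth muscle and of macrophages were highest in D2IA. T and NK cell markers did not stand high in D1IA, at 6.61 pcTPM with 7 of 9 at 0. With 663099 protein-coding reads, this library was also the least deep, and the part of depth and of these marker genes in its values was not tested.

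Over the whole list, the groups of set 045 were more often apart upward and less often apart downward than those of genes at large, a contrast that was not tested. Both antibody libraries lay above both IgG libraries for 10 members (26.3%), against 14.2% of genes, and below them for 2 (Ifit1 and Cmpk2), against 20.8%. Gbp3, Irgm1 and Ifitm3 lay above in set 045 and below in set 076, a reversal seen in 2.25% of genes, and 0 members showed the opposite reversal (2.24%). With the TPM as deposited, the antibody libraries lay above in set 045 for 0 members, and the share of all genes was not counted on that scale. Summed markers of other cells were also apart upward in set 045 on the pcTPM scale. Contractile smooth muscle lay at 770 and 821 pcTPM with the antibody and at 543 and 456 pcTPM with IgG. Endothelium lay at 681 and 518 pcTPM, against 335 and 413 pcTPM. Neutrophil sums were apart upward as well, and those of the other marker lists overlapped. The treatment effect in set 076 minus that in set 045 was negative for 31 of 38 members, with a median of -0.42 against 0.14 over all genes, and 0 members and 0 genes were called (0.00% of genes; 924 genes, 5.09%, had an unadjusted p under 0.05, limma). The members of smallest p for this difference were Gbp3 (-1.55 ± 0.59), Ifitm3 (-1.13 ± 0.44) and Ifit3 (-1.23 ± 0.49), each with an adjusted p of 0.798 (limma). The change of direction between the sets was therefore not a difference that passed the test. Nor was it particular to these genes. The median difference was negative for markers of contractile smooth muscle (-0.77), endothelium (-0.94), macrophages (-0.77), B and plasma cells (-1.40) and neutrophils (-1.75). For markers of T and NK cells (0.62), plasmacytoid dendritic cells (1.63) and skeletal muscle (4.99) it was positive.

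Within set 076 the antibody libraries stood on either side of the IgG libraries for 16 of 38 members. D1IA was the lowest of the set for 26 of 38 members, against 42.6% of all genes. D2IA was the highest for 18 of 38, which is near its share of 41.9% of all genes. D1IA was lowest for 29 members in TPM as deposited, 20 in read counts scaled to protein-coding depth and 16 after quantile normalization. D2IA was highest for 22, 12 and 5 on those scales. Shares of all genes were counted on the pcTPM scale only, so whether these shifts are particular to the members was not tested. Both IgG libraries lay between D1IA and D2IA, with D2IA on top, for 15 members (39.5%), against 21.2% of genes. These were Ifit1, Ifi35, Ifih1, Irf9, Stat2, Mx1, Mx2, Oas1a, Oas2, Oas3, Oasl2, Usp18, Bst2, Cmpk2 and Parp14. Oasl2 lay at 9.13 and 34.1 pcTPM in the antibody libraries of set 076, against 16.6 and 15.4 pcTPM in its IgG libraries. In set 045, Oasl2 had 63.2 and 84.5 pcTPM in the antibody libraries and 49.7 and 67.9 pcTPM in the IgG libraries. In set 076 Oasl2 in D2IA thus lay over 2-fold above the next library, the only member to do so there (6.64% of genes), and the exact Poisson intervals of D1IA (7.31 to 11.3 pcTPM) and D2IA (30.3 to 38.3 pcTPM) did not meet those of the IgG libraries (13.9 to 19.6 and 13.0 to 18.1 pcTPM). Cmpk2 lay at 8.65 and 21.2 pcTPM in the antibody libraries of set 076, against 13.5 and 13.7 pcTPM in its IgG libraries. In set 045, Cmpk2 had 37.5 and 48.95 pcTPM in the antibody libraries and 52.7 and 50.9 pcTPM in the IgG libraries. Parp14, an ADP-ribosyltransferase gene, lay at 22.7 and 44.3 pcTPM in the antibody libraries of set 076, against 42.2 and 27.2 pcTPM in its IgG libraries. None of the 5 GTPase genes was among the 15. IgG lay between the antibody libraries in either order for 16 members (23.6% of genes) on the pcTPM scale, 19 in TPM as deposited, 8 in read counts scaled to protein-coding depth and 7 after quantile normalization.

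**Figure D5:**
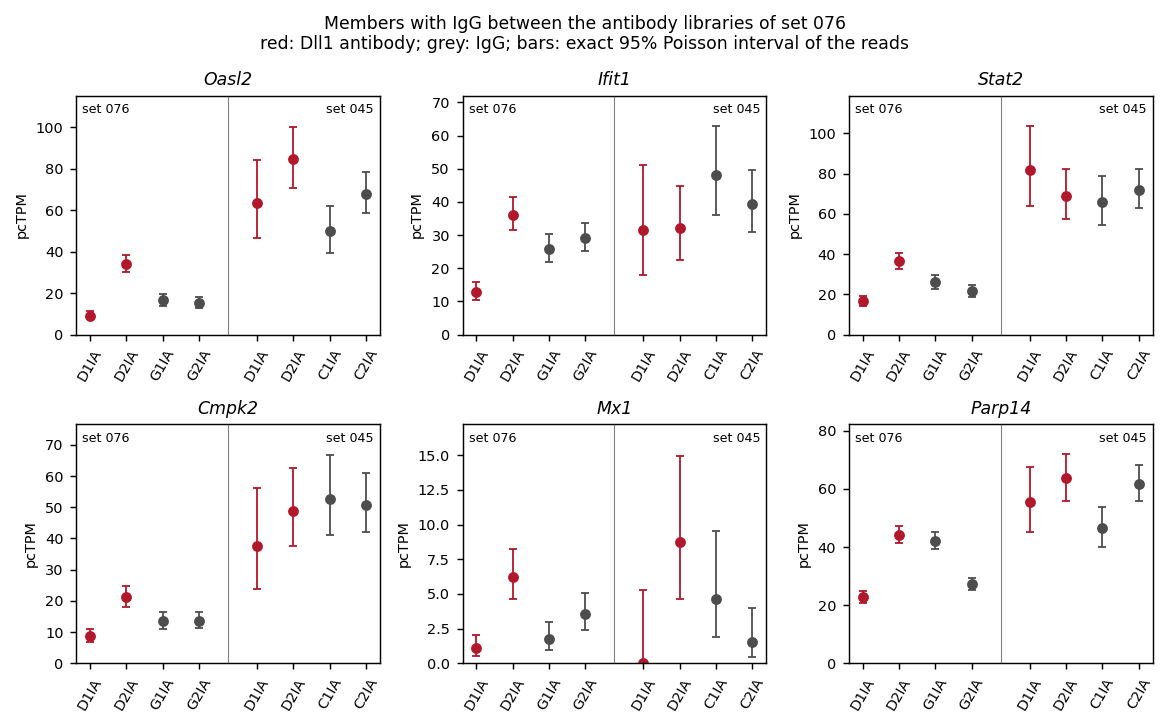
Level in pcTPM of 6 of the 15 members for which both IgG libraries of set 076 lay between antibody libraries D1IA and D2IA, in each library, with set 076 on the left and set 045 on the right of each panel, antibody libraries in red and IgG libraries in grey. Bars are exact 95% Poisson intervals of the reads and cover counting error only. In set 076 Oasl2 lies at 9.13 and 34.1 pcTPM in the antibody libraries and at 16.6 and 15.4 pcTPM in the IgG libraries.

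These antibody libraries of set 076 also differed in marker levels. Skeletal muscle markers summed to 3508 pcTPM in D1IA and 252 pcTPM in D2IA, against 69.4 and 5.44 pcTPM in the IgG libraries, neutrophil markers to 90.7 and 899.98 pcTPM, against 263 and 218 pcTPM, and plasmacytoid dendritic cell markers to 120.4 and 39.4 pcTPM, against 42.9 and 13.0 pcTPM. At 0 were 2 of 5 skeletal muscle markers in G2IA and 1 of 5 plasmacytoid dendritic cell markers in each library of the set. Cox6a2, which striated muscle also expresses, supplied 101.7 of the 120.4 pcTPM in D1IA. Pacsin1 of the same list lay at 0.333 pcTPM in D1IA and 16.9 pcTPM in D2IA, so that the list did not move as one. Siglech, a defining marker of plasmacytoid dendritic cells, lay at 1.92 and 2.82 pcTPM with the antibody and 2.61 and 1.62 pcTPM with IgG. Their part in the split was not tested.

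More members passed the test between the sets (9 of 38) than between the treatments (0 of 38). With the treatment as a term, 9 of 38 members were lower in set 076 than in set 045 and 0 higher, against 6.84% of genes called lower and 2.67% higher, and the median log2 difference was -0.64 for the members and -0.27 for all genes. Oasl2 differed by -1.89 ± 0.37 (adjusted p = 0.0236), Cmpk2 by -1.72 ± 0.28 (0.0155) and Stat2 by -1.53 ± 0.25 (0.0158), all by limma. Mx2 encodes a relative of Mx1. Mx2 lay at 2.25 and 3.65 pcTPM in the antibody libraries of set 076, against 2.57 and 3.37 pcTPM in its IgG libraries. In set 045, Mx2 had 18.8 and 8.12 pcTPM in the antibody libraries and 12.00 and 10.96 pcTPM in the IgG libraries. Mx2 differed by -1.72 (adjusted p = 0.0328, limma), and no library of set 076 reached the lowest of set 045. The others called were Oasl1 (-1.67), Irf7 (-1.33), Ifi35 (-1.22), Usp18 (-1.18) and Xaf1 (-1.11). Ifi35 encodes a leucine-zipper protein that interferon induces. Ifi35 lay at 31.6 and 42.1 pcTPM in the antibody libraries of set 076, against 34.5 and 34.3 pcTPM in its IgG libraries. In set 045, Ifi35 had 63.4 and 118 pcTPM in the antibody libraries and 72.5 and 91.8 pcTPM in the IgG libraries. Xaf1 encodes a factor that opposes the apoptosis inhibitor XIAP. Xaf1 lay at 7.64 and 12.03 pcTPM in the antibody libraries of set 076, against 5.56 and 10.9 pcTPM in its IgG libraries. In set 045, Xaf1 had 24.5 and 19.3 pcTPM in the antibody libraries and 18.5 and 18.1 pcTPM in the IgG libraries. For both genes every library of set 076 lay below every library of set 045.

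In TPM as deposited these members lay higher in set 076, as nearly all genes did there, with a median of 1.88 for the 31 members that passed the filter and 2.17 for all genes. Relative to all genes the members' median was thus -0.29 in TPM, -0.37 on the pcTPM scale and -0.18 with limma-voom on the recovered reads. The sets also differed in cell markers. Contractile smooth muscle markers summed to 3408 to 4405 pcTPM in set 076 and 456 to 821 pcTPM in set 045, with all 4 called higher in set 076, and the part of tissue makeup and of depth in the set difference was not tested.

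The other members with no call in any test were Rtp4, a chaperone for membrane receptors, at 12.4 to 36.5 pcTPM in the 8 libraries, Trim30a, a brake on Toll-like receptor signals in mice, at 24.2 to 54.5 pcTPM, and Oas1a and Oas2 at 14.7 to 38.9 and 6.86 to 24.5 pcTPM. They are shown with the rest in the heat map of members by library.

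The interferons themselves were barely seen. Of 11 ligand genes, 8 to 9 were at 0 in the antibody libraries and 9 to 10 in the IgG libraries of set 076, and 10 to 11 and 9 in those of set 045. The reads over all 11 ligands numbered 4 to 8 with the antibody and 2 to 13 with IgG in set 076, and 0 to 2 and 3 to 7 in set 045. Ifnb1, the gene of IFN-β, had 1 read in 1 library and Ifng 6 reads in 2 libraries, so that differences in the ligands were not detectable at this depth. The receptors were well detected. Ifnar1 encodes a chain of the type I receptor. Ifnar1 lay at 39.7 and 62.2 pcTPM in the antibody libraries of set 076, against 72.01 and 44.5 pcTPM in its IgG libraries. In set 045, Ifnar1 had 44.3 and 85.3 pcTPM in the antibody libraries and 52.9 and 75.1 pcTPM in the IgG libraries. Ifngr1 encodes the chain that binds IFN-γ. Ifngr1 lay at 179 and 201 pcTPM in the antibody libraries of set 076, against 199 and 212 pcTPM in its IgG libraries. In set 045, Ifngr1 had 75.1 and 65.3 pcTPM in the antibody libraries and 67.7 and 137 pcTPM in the IgG libraries. Every library of set 076 thus lay above every library of set 045 for Ifngr1, while antibody and IgG libraries overlapped within each set for both chains.

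None of the pathway lists, which were set down with earlier results known, held a called gene in the test over both sets. Of 6 receptor genes 2 were positive and 4 negative (median log2 fold change -0.07, with all genes at -0.07), and of 5 receptor signalling genes 2 and 3 (-0.01). Of 14 genes that sense nucleic acid and induce interferon, 10 were positive and 4 negative (0.17), with Mb21d1, the gene of the DNA sensor cGAS, at 0.94 ± 0.59. Of 6 negative regulators 5 were positive and 1 negative (0.21), with Socs3, a feedback inhibitor of JAK kinases, at 0.58 ± 0.37. Of the 46 other interferon-stimulated genes 38 were positive and 8 negative, with a median of 0.17. In set 076 the same list had 9 positive and 37 negative, with a median of -0.11, and in set 045 38 and 8, with 0.55.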

How the data were processed

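RNA was from mouse brachiocephalic artery in 8 libraries, 4 per group. The authors deposited TPM per gene in 1 table, whose aligner, counter and annotation the sources used here do not give. The identifiers are mouse Ensembl genes, although hg19 is the build named, per the submitters' processing notes. The set and treatment were read from the column names, which do not carry the replicate numbers of the labels. TPM was rescaled to 1000000 over 21721 nuclear protein-coding genes (pcTPM). Genes with a mean of at least 1 pcTPM (18170) were tested with limma 3.58.1 in R 4.3.3 (trend and robust) on log2(pcTPM + 1), with the set as a term, within each set, and for the interaction, with Benjamini-Hochberg adjustment at 0.05. A fold change on this scale understates that of low genes. All TPM values of the 25386 genes above 0 came out as whole reads within a relative tolerance of 1e-05 and at most 0.05 reads, with 19704 gene lengths known and 5682 derived, and limma-voom on these reads served as an alternative. Recovered reads numbered 11062677 to 13816416 per library, and the share of TPM on nuclear protein-coding genes was 21.2% to 24.2% (set 076) or 0.848% to 3.10% (set 045).

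The members and lists were chosen with earlier results of these data known. A gene of the signalling list is not reported here. Values in every library are given for the members called in any test, the 8 of smallest p for treatment, and the highest and lowest by mean level, and genes described by library beyond these were chosen after their values were seen. The number in a column name was checked as a pairing within sets. Same-numbered libraries did not deviate together (correlations of -0.19 in set 076 and -0.17 in set 045), and the numbers were not used to pair. With 2 libraries per group in each set, the crossed pairing has the same correlation with the sign reversed by construction. The check therefore cannot show that pairing was absent. Other alternatives were the TPM as deposited, other filters, pseudocounts and scalings, array weights and leaving out each library. Tools were tested on simulated data. Tables were handled with Python 3.11.15, pandas 2.3.3, SciPy 1.17.1 and Matplotlib 3.10.9.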

Additional observations from a re-analysis of the deposited data

Results flagged for a closer look

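In 3 of 76 sets of 4 libraries (each member in each group) 1 library stood far from the other 3 by Dixon's 95% criterion. Chance meets the criterion in about 1 in 20 for libraries of 1 population, or 3.8 of the 76. The 4 libraries of a group came from both set 045 and set 076, which differ in level, so that rate is only a rough guide. Gbp2 lay at 228 pcTPM in antibody library D1IA of set 045, where the other 3 antibody libraries lay between 53.5 and 58.5 pcTPM. Iigp1 lay at 207 pcTPM in the same library, where the other 3 lay between 24.3 and 25.6 pcTPM. Gbp7 lay at 50.7 pcTPM in IgG library C2IA of set 045, where the other 3 IgG libraries lay between 27.3 and 31.2 pcTPM.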

How the results depend on the processing

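Over both sets, 0 members were called under every alternative run. With the TPM as deposited 1 gene was called with the set as a term, and the members' median log2 fold change was -0.18, against -0.17 for all genes. Leaving out that term cannot change a fold change, since each set held 2 libraries of each group. Array weights gave a members' median of -0.26. Irf7 changed direction, at -0.048 in TPM with or without the set as a term and at -0.079 with array weights. In set 076, genes called numbered 5 with a pseudocount of 5, 10 with a mean of at least 5, 20 in TPM, 0 with limma-voom and 0 to 0 with a library left out, against 3, and the members' median ran from -0.48 without D2IA to 0.059 without D1IA. In set 045 the median in TPM was -0.23 (all genes -0.36), and leaving out a library gave 0 to 42 genes and 0 to 1 members called, the 42 without D2IA. Fits with a library left out took the spread from all 4 groups of libraries, a fit that with none left out called 2 genes in set 076 and 0 in set 045. The interaction called 134 genes in TPM, where the members' median was 0.14 (all genes 0.42). The set difference in TPM called 10898 genes and 31 members, with a median of 1.88 (all genes 2.17). There Oasl2 (1.16), Usp18 (1.15), Irf7 (1.45), Stat2 (1.51), Xaf1 (1.13), Ifi35 (1.82) and Cmpk2 (1.13) changed direction. Beyond the scale itself, the cause was not tested. A replicate block on the number in the column name called 0 genes and 0 members, with a median of 0.09, and a crossed block, added after seeing the data, called 0 genes. Depth limits set 045 most, where 16 members had under 20 reads in antibody library D1IA.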
